A study of Mus musculus with 9 samples.

Results

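The genes described here are 44 markers of astrocyte identity and astrocyte reactivity, followed in cultured mouse cortical astrocytes exposed to noradrenaline. They were taken by symbol from the deposited table of estimated counts, where all 44 were found among 22100 rows. Of these, 22 are identity genes and 22 are genes that astrocytes raise when they become reactive. The count filter for testing was passed by all 22 identity genes and by 20 of the reactive genes, out of 13090 genes in the whole table. The 9 libraries came from polyadenylated RNA, 3 in each of 3 groups. The first group had 50 µM noradrenaline for 90 min and was collected at that time. The second group had the same 90 min exposure, then medium without the ligand, and was collected 3 days after stimulation. The third group was unstimulated and is titled with the 3 day time, so no unstimulated cells collected at 90 min were analysed here, and treatment and collection time cannot be told apart at 90 min. All cells grew on poly-L-lysine in a medium with fetal bovine serum and were passaged before confluence. The labels give no mouse strain, age or sex, and do not say whether control medium was changed. Nor do they say whether replicates were separate cultures, so the p-values speak of library-to-library spread that could be technical.

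Astrocytes are the main support cells of the brain: they take up transmitters, buffer ions and water, and feed neurons. Their fate is set during development by transcription factors of the SOX and nuclear factor I families, and mature astrocytes are recognised by filament, channel and enzyme genes. After injury, infection or inflammation they turn reactive and raise shared (pan-reactive) genes, together with panels named A1-type, after inflammatory stimulation, and A2-type, after ischaemia, from work in mice. Those panels are markers taken from particular injuries and are not fixed cell states. Noradrenaline is released across the cortex by the locus coeruleus and acts on astrocytes through adrenoceptors that raise calcium and cyclic AMP.

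A pair of reactive members belongs to the sphingosine-1-phosphate pathway. Sphk1 is the kinase that makes this lipid signal and S1pr3 is one of its receptors, and at 90 min their mRNAs moved in opposite directions (values below). Stretches before their starts are shown because cyclic AMP acts on genes through the response element TGACGTCA and its shorter core motif TGACG. RefSeq's promoter entries (build GRCm38.p6, 250 bases before to 50 after a start) matched 34 of the 44 members. Capitals mark the core motif in this Sphk1 entry, one of 5, on chr11:116531587-116531736, plus strand, which runs from 250 to 101 bases before the start; the same entry holds another copy 37 bases after the start, outside the printed stretch. The S1pr3 stretch on chr13:51408368-51408617, plus strand, runs from 250 bases to 1 base before its start. The Sphk1 entry was picked because it holds the motif before its start, whereas S1pr3 has 1 entry, so the pair is no comparison. Whether the motif bears on the directions of the 2 mRNAs was not tested.
Sphk1: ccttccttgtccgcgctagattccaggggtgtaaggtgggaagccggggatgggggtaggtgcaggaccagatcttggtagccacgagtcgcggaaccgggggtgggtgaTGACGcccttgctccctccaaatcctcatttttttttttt
S1pr3: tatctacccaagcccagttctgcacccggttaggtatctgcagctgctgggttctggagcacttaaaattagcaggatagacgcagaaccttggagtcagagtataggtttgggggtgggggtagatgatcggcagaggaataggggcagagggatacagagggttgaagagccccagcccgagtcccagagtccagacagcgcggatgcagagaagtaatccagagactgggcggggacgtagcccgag
Searched on both strands, with core motifs inside a full element also counted, the core motif was in entries of 5 of the 34 matched members (14.7%): Sphk1, Srgn, B3gnt5, H2-D1 and Timp1. It was in entries of 23% of all 27025 genes with one, and the full element was in 0 of the 34 members and in 2.03% of all genes. A match is a description of letters in these windows only. Neither printed stretch overlaps an exon annotated in GENCODE M21.

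Levels are CPM, counts scaled to a common library size. They can be compared between genes only after division by transcript length, for which the longest protein-coding transcript of each gene in GENCODE M21 was used. On this scale of CPM per kilobase the filament gene Vim (vimentin) stood first in every group, at 1833 ± 88.9 at 90 min, 1748 ± 51.8 at 3 days and 1825 ± 48.6 in controls (SD, n = 3 each). Cp, the copper ferroxidase ceruloplasmin, followed at 308, 340 and 326 CPM per kilobase in the same order of groups. The secreted lipid and chaperone proteins Clu (298, 326 and 306) and Apoe (244, 248 and 258) came next.

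Several genes often used to recognise astrocytes were near the bottom of the same order. Gfap, the classical astrocyte filament gene, had 0.574 ± 0.0491 CPM per kilobase at 90 min, 0.548 ± 0.105 at 3 days and 0.427 ± 0.110 in controls. S100b, a calcium-binding protein gene, had 0.635, 0.896 and 1.13, and Hepacam, which codes for an adhesion protein of astrocyte endfeet, 0.132, 0.177 and 0.160. In contrast, the transcription factor genes other than Sox8 were better represented. Nfix stood at 118, 133 and 147 CPM per kilobase, Sox2 at 62.4, 71.1 and 72.1, and Sox9 at 34.0, 55.0 and 59.9. Nfia was the lowest of them, at 10.5, 11.5 and 12.1, while Sox8, at 0.54, 1.06 and 1.13, was near S100b. Aqp4, the water channel, and Aldh1l1, a folate enzyme, lay between Nfia and S100b, at 5.28, 6.97 and 6.56 and at 4.53, 5.07 and 5.32. Of these markers most transcription factor genes, Aldh1l1 and Aqp4 were clearly detected, with Gfap, S100b and Sox8 at trace level. The glutamate transporter gene Slc1a3, which is no member, had 188 ± 5.93 CPM at 90 min, 136 ± 0.677 at 3 days and 131 ± 1.42 in controls. It was taken from a list of 30 other astrocyte genes, of which 11 did not pass the count filter and Slc7a10 had 0 counts in every library.

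**Figure D1:**
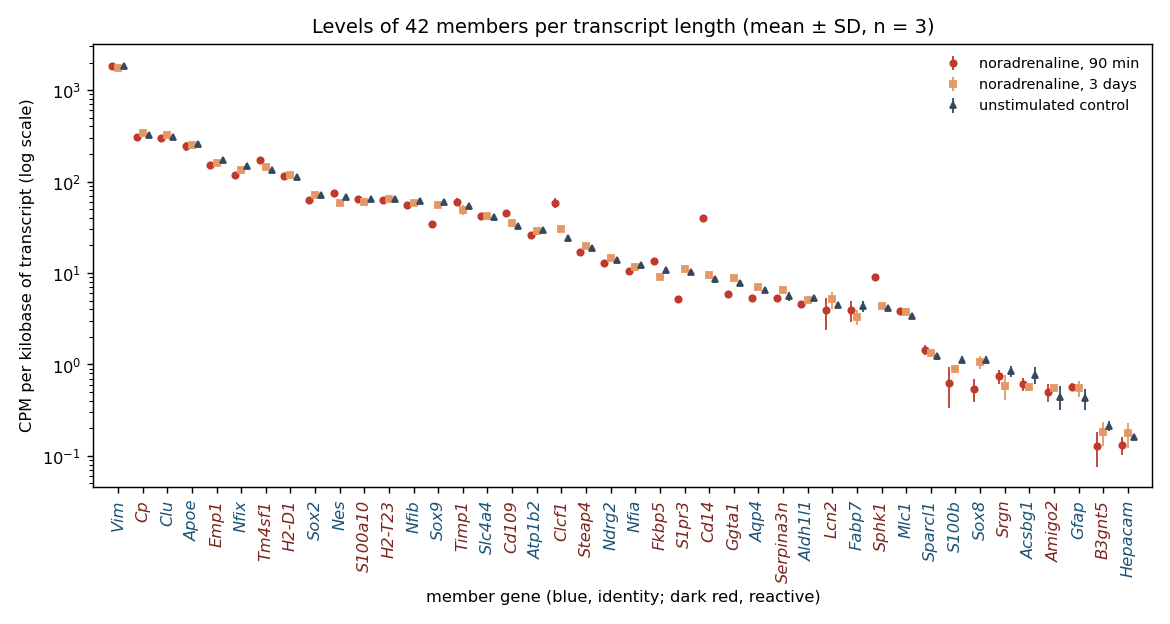
Levels of 42 members in CPM per kilobase of transcript (log axis), mean ± SD of 3 libraries per group, ordered by the control mean; Slc10a6 and Tgm1, at or near 0, are left out. Vim is highest, at 1748 to 1833, and Hepacam and B3gnt5 lie below 0.3 in every group. Cd14 and Clcf1 stand above, and Sox9 and S1pr3 below, their neighbours at 90 min.

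Libraries held 15529158 to 18729980 counts, and 3 counts, the number that a count of 0 allows, equalled 0.158 to 0.190 CPM (counting error only). Of 12 microglia markers P2ry12, C1qa, C1qb and Tyrobp had 0 counts in every library, and of 10 oligodendrocyte lineage markers Olig1 and Olig2 did. The count filter was not passed by 10 of the first list and 6 of the second. Tmem119 of the first list had a mean of 7.28 CPM in controls, and Mbp and Pdgfra of the second had 16 and 7.08 CPM. Fibroblast and meningeal markers had summed levels over 11 genes of 3267 to 3759 CPM at 90 min, 3152 to 3353 at 3 days and 3514 to 3795 in controls. The list was uneven. In control means Col1a1 had 1419, Postn 1091, Col1a2 877, Ogn 88.3 and Dcn 87.5 CPM, whereas Lum had 7.96, Col3a1 4.28 and Fap 0 CPM. In bulk RNA, fewer cells of a type and less RNA per cell cannot be told apart.

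The comparison of 90 min with control asks how the exposure changed these markers. At 90 min identity genes were lower or not called, while reactive genes moved in both directions. Of 22 identity genes 10 fell and 0 rose, and of 20 tested reactive genes 6 rose and 4 fell (edgeR quasi-likelihood test, Benjamini-Hochberg adjusted p below 0.05). Over all 13090 genes tested 33.0% were called, 17.5% higher and 15.5% lower. The median log2 fold change was −0.15 over the identity genes and −0.03 over the tested reactive genes, beside 0.00 over all genes tested. The calls of 6 identity genes (Sox9, Sox8, Sox2, Nfia, Nfix and Aqp4) and 9 reactive genes (all but Steap4) held under each of 15 alternatives in the fit, which included leaving out each library. Without control library 3 only 6 identity genes fell, and 1 (Nes) rose without 90 min library 2, without control library 3 and with no filter.

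**Figure D2:**
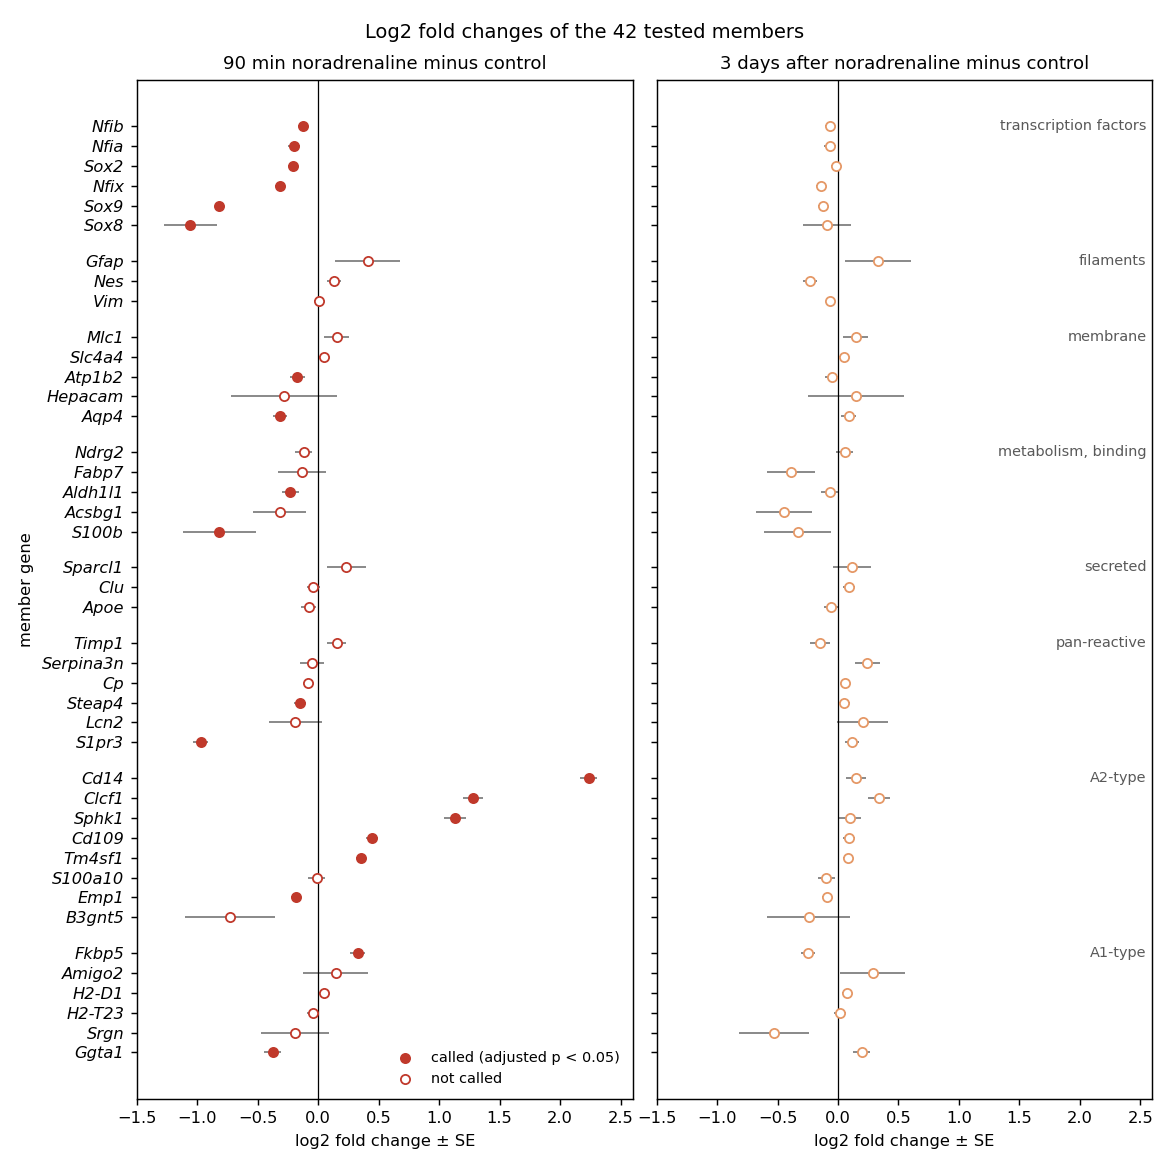
Log2 fold changes ± SE (x axis) of the 42 tested members (y axis, grouped by role), 90 min minus control on the left and 3 days minus control on the right; filled points passed an edgeR adjusted p of 0.05. On the left Cd14 lies at 2.24 and Sox8 at −1.06, and on the right no point is filled and all lie between −0.53 and 0.34.

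All 6 transcription factor genes fell at 90 min. Sox9 (Entrez gene 20682), a SOX factor needed to specify glia, had 139, 141 and 142 CPM at 90 min, 230.2, 231 and 221 CPM at 3 days, and 244, 244 and 255 CPM in controls. The 90 min libraries lay below all others and close to each other. The log2 fold change at 90 min was −0.82 (SE 0.04, edgeR adjusted p = 9.81e-12), a level 0.568 times that of controls. Sox8 (Entrez gene 20681), a close relative of Sox9, had 2.07, 1.17 and 1.62 CPM at 90 min, 3.68, 3.18 and 2.65 CPM at 3 days, and 3.02, 3.67 and 3.46 CPM in controls. Its 90 min libraries were again the 3 lowest, although these values rest on only 21 to 37 counts. The change was −1.06 (SE 0.22, edgeR adjusted p = 0.00103).

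Sox2, which keeps neural progenitors undifferentiated and stays on in astrocytes, changed less. It had 129, 131 and 125 CPM at 90 min, 153, 144 and 142 CPM at 3 days, and 153, 141 and 151 CPM in controls (log2 −0.21 at 90 min, SE 0.04, edgeR adjusted p = 0.00134). The nuclear factor I genes start astrocyte differentiation together with Sox9. Nfix stood at −0.32 on the log2 scale (SE 0.04, edgeR adjusted p = 5.01e-06), with 623 to 661 CPM at 90 min against 788 to 831 CPM in controls. Nfia changed by −0.20 (97.5 to 102 against 114 to 116 CPM, edgeR adjusted p = 0.00230). Nfib changed by −0.13 (501 to 517 against 546 to 571 CPM, edgeR adjusted p = 0.0254), and its call was lost without 90 min library 2 (adjusted p = 0.0551), control library 1 (0.0576) and control library 3 (0.106), and with the replicate number as a block (0.0551). For each of these 6 genes the ranges of the 90 min and control libraries did not overlap, as for 25 of the 42 tested members and 5697 of all 13090 genes tested.

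None of the 3 filament genes was called. Vim had 4098, 4165 and 3799 CPM at 90 min, 3765, 3769.6 and 3964 CPM at 3 days, and 4066, 3879 and 4061 CPM in controls, with a log2 fold change at 90 min of 0.01 (95% interval −0.08 to 0.09, edgeR adjusted p = 0.923). Gfap had 26, 30 and 24 counts at 90 min, 26, 31 and 23 counts at 3 days, and 26, 13 and 19 counts in controls. That is 1.45, 1.67 and 1.44 CPM at 90 min, 1.37, 1.76 and 1.22 CPM at 3 days, and 1.40, 0.823 and 1.17 CPM in controls. The 90 min libraries lay just above the highest control, and the interval of the log2 fold change ran from −0.16 to 0.98 (edgeR adjusted p = 0.281), so a change of that size could not be detected at this depth. Nes (nestin), a filament gene of progenitors and reactive astrocytes, had 483, 415 and 474 CPM at 90 min, 376, 337 and 357 CPM at 3 days, and 412, 393 and 450.1 CPM in controls. Its 90 min and control ranges overlapped (log2 0.13, SE 0.06, edgeR adjusted p = 0.109), and it was called higher without 90 min library 2 (0.19, edgeR adjusted p = 0.0131), without control library 3 (0.18, edgeR adjusted p = 0.0367) and with no filter (edgeR adjusted p = 0.0332).

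Of the 5 membrane genes, which serve water, ion and contact functions at astrocyte processes, 2 fell. Aqp4 had 25, 26.7 and 28.3 CPM at 90 min, 35.2, 35.8 and 34.7 CPM at 3 days, and 32.5, 33.6 and 33.4 CPM in controls. The 3 groups did not overlap, with the 90 min libraries lowest and the 3 day libraries highest. The change at 90 min was −0.31 (SE 0.06, edgeR adjusted p = 0.000814). Atp1b2, a sodium pump subunit that also acts in adhesion, changed by −0.17 (SE 0.06, edgeR adjusted p = 0.0364), with 71.6 to 76.7 CPM at 90 min against 80.3 to 87.9 CPM in controls. Its call was lost without 90 min libraries 1 (adjusted p = 0.0780) and 3 (0.0846) and without control libraries 1 (0.0851) and 3 (0.151). The bicarbonate carrier gene Slc4a4 (log2 0.04) and the partner endfoot genes Mlc1 (0.15) and Hepacam (−0.28) were not called, with edgeR adjusted p of 0.456, 0.282 and 0.674. Hepacam rested on 6 to 9 counts per 90 min library, and its interval of −1.20 to 0.64 was wide.

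Among 5 metabolic and binding genes Aldh1l1 and S100b fell. Aldh1l1 had 19.2, 19.4 and 18.1 CPM at 90 min, 20.6, 20.3 and 22.6 CPM at 3 days, and 21.6, 22.4 and 22.6 CPM in controls. The 90 min libraries were below every other one (log2 −0.23, SE 0.07, edgeR adjusted p = 0.0229). The Aldh1l1 call was lost without 90 min library 3 (adjusted p = 0.0700), without control libraries 2 (0.0643) and 3 (0.0636), and in DESeq2 (0.0693). S100b had 26, 14 and 10 counts at 90 min, 26, 21 and 27 counts at 3 days, and 34, 25 and 26 counts in controls, or 1.45, 0.778 and 0.601 CPM at 90 min, 1.37, 1.19 and 1.43 CPM at 3 days, and 1.84, 1.58 and 1.61 CPM in controls. The first 90 min library was near the controls and the other 2 were far below them. The change was −0.82 (SE 0.30, edgeR adjusted p = 0.0452). Leaving out single libraries moved the S100b value to between −1.27 without 90 min library 1 and −0.59 without 90 min library 3, and the call held only without 90 min library 1 among those 9 fits. The call was also lost in the fit of only these groups (edgeR adjusted p = 0.0571), with the replicate block (edgeR adjusted p = 0.0511) and in DESeq2 (adjusted p = 0.115).

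The other members of this role were Ndrg2, a marker enriched in mature astrocytes, Fabp7, the fatty acid-binding protein of radial glia, and Acsbg1, a fatty acid activating enzyme. Their log2 fold changes of −0.12, −0.13 and −0.32 were not called (edgeR adjusted p 0.184, 0.661 and 0.313). The secreted proteins made by astrocytes, the lipid carrier Apoe, the extracellular chaperone Clu and the synapse organiser Sparcl1, were not called either, at −0.08, −0.04 and 0.23 (edgeR adjusted p 0.307, 0.617 and 0.298). Apoe would be called lower without 90 min library 2 (log2 −0.15, edgeR adjusted p = 0.0276), the highest of its 90 min libraries at 379 CPM beside 348 and 305.

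Beside these identity genes, 0 of 9 tested fibroblast and meningeal markers and 0 of 2 tested microglia markers were called at 90 min. Of 5 tested pericyte and smooth muscle markers 1 rose and 1 fell, with summed levels over 10 genes of 522 to 584 CPM at 90 min against 736 to 745 CPM in controls. Of 4 tested ependymal markers 1 fell, with sums over 6 genes of 40.4 to 48.8 CPM at 90 min against 83.2 to 91.4 CPM in controls, and Tmem212 at 0 throughout. Of 2 tested endothelial markers 1 rose and 1 fell, with sums of 43.9 to 45.9 CPM at 90 min against 49.5 to 55.1 CPM in controls and Cldn5 at 0 throughout. Of 4 tested oligodendrocyte lineage markers 1 rose (Mbp) and 1 fell (Cspg4), with sums over 10 genes of 39.2 to 40.2 CPM at 90 min against 29.4 to 31.1 CPM in controls, and Olig1 and Olig2 at 0 throughout. Of 3 tested neuron markers 0 were called, with sums over 10 genes of 139 to 157 CPM at 90 min against 138 to 139 CPM in controls. Nearly all of these sums was Map2, with means of 143 CPM at 90 min and 136 CPM in controls, and 7 of the 10 did not pass the count filter. The part of these markers in the result was not tested. In a list of 30 other astrocyte genes, which include several strong markers of mature cells, 19 could be tested, of which 3 rose and 6 fell. The 3 with the smallest p were Id3, a repressor of differentiation factors, at −1.01 (SE 0.06, edgeR adjusted p = 6.65e-11), the gap junction gene Gja1 at 0.93 (SE 0.06, edgeR adjusted p = 3.57e-10) and Slc1a3 at 0.53 (SE 0.04, edgeR adjusted p = 5.02e-09). Identity genes outside the members thus included both higher and lower calls.

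Among the reactive genes the A2-type members held the calls with the highest fold changes: of 8 tested 5 rose and 1 fell. Over all tested genes 17.5% rose and 15.5% fell. Cd14 (Entrez gene 12475), a co-receptor for lipopolysaccharide, had 66.5, 68.0 and 64.1 CPM at 90 min, 16.2, 15.9 and 14.7 CPM at 3 days, and 15.1, 14.2 and 12.7 CPM in controls. The 90 min libraries were far above the others, which overlapped. The log2 fold change at 90 min was 2.24 (SE 0.07, edgeR adjusted p = 2.97e-14), or 4.71-fold. Clcf1 (Entrez gene 56708), a cytokine of the interleukin-6 family that acts through the CNTF receptor, had 98.3, 102 and 123 CPM at 90 min, 60.6, 51.8 and 55.6 CPM at 3 days, and 42.2, 49.4 and 41.6 CPM in controls. Here the 3 groups did not overlap, and the 3 day libraries lay between the others. Clcf1 changed by 1.28 at 90 min (SE 0.08, edgeR adjusted p = 6.29e-10), or 2.43-fold.

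Sphk1 (Entrez gene 20698), whose stretch with the core motif is printed above, had 24.2, 25.6 and 22.2 CPM at 90 min, 11.8, 12.3 and 11.1 CPM at 3 days, and 10.4, 12 and 10.6 CPM in controls. It rose 2.19-fold at 90 min (log2 1.13, SE 0.09, edgeR adjusted p = 8.88e-09), while the 3 day and control ranges overlapped. Cd109, a membrane-anchored inhibitor of TGF-beta signalling, rose by 0.44 (242 to 279 against 185 to 202 CPM, SE 0.05, edgeR adjusted p = 2.27e-06). Tm4sf1, a membrane protein of migrating cells, rose by 0.35 (559 to 606 against 445 to 465 CPM, SE 0.04, edgeR adjusted p = 3.87e-06). Emp1, an epithelial membrane protein, was the A2-type member that fell (−0.19, edgeR adjusted p = 0.00225), with 429.6 to 444 CPM at 90 min against 467 to 523 CPM in controls.

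S100a10, a partner of annexin, had a log2 fold change of −0.01 (95% interval −0.15 to 0.13, edgeR adjusted p = 0.914). B3gnt5, a glycolipid enzyme gene, had 6, 13 and 14 counts at 90 min, 13, 21 and 15 counts at 3 days, and 22, 16 and 15 counts in controls (log2 −0.73, SE 0.37, edgeR adjusted p = 0.150). The members left untested were nearly silent. Slc10a6, a carrier of steroid sulphates, had 1, 0 and 1 counts at 90 min, 0 in each 3 day library, and 0, 1 and 0 counts in controls. Tgm1, a transglutaminase gene, had 5, 0 and 0 counts at 90 min, 1, 0 and 0 counts at 3 days, and 0 in each control. No fold is given for either, since all these libraries but one were below 3 counts.

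**Figure D3:**
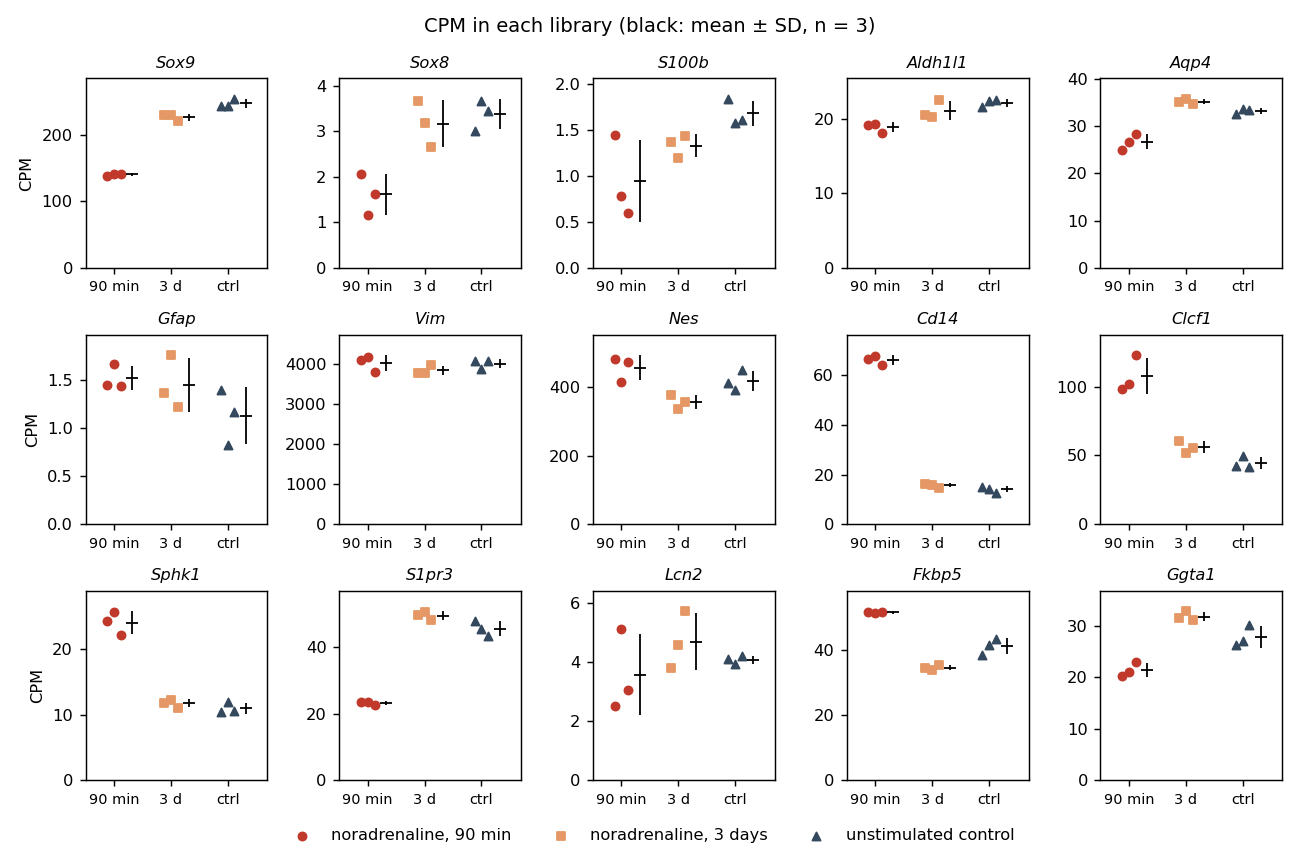
CPM in each of the 9 libraries for 15 members, with the group mean ± SD (n = 3) in black; each panel has its own axis, starting at 0. The 90 min libraries are the 3 highest for Cd14, Clcf1 and Sphk1 and the 3 lowest for Sox9, Sox8 and S1pr3, whereas the groups of Vim and Lcn2 overlap.

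Of 6 pan-reactive members 0 rose and 2 fell at 90 min, where 17.5% of all tested genes rose and 15.5% fell. These 6 are a part of the genes raised in reactive astrocytes, and Cd44 and Osmr, outside the members, rose (values below). S1pr3 (Entrez gene 13610), the receptor gene printed above, had 23.6, 23.5 and 22.5 CPM at 90 min, 49.6, 50.4 and 48.0 CPM at 3 days, and 47.8, 45.5 and 43.3 CPM in controls. Its 90 min level was 0.509 times the control level (log2 −0.97, SE 0.06, edgeR adjusted p = 3.06e-10), and all 90 min libraries were below all others. Lcn2 (lipocalin), an iron-scavenging protein that marks strongly reactive astrocytes, had 2.52, 5.11 and 3.07 CPM at 90 min, 3.79, 4.59 and 5.72 CPM at 3 days, and 4.10, 3.93 and 4.20 CPM in controls. The second 90 min library exceeded every control and the other 2 were below them, and the change of −0.19 was not called (SE 0.22, edgeR adjusted p = 0.564). Steap4, a metal reductase gene, changed by −0.15 (51.5 to 56.4 against 58.5 to 60.6 CPM, edgeR adjusted p = 0.0345), and its call was lost in DESeq2 (adjusted p = 0.0751), without 90 min libraries 1 (0.146) and 3 (0.0559) and without control libraries 1 (0.111), 2 (0.0523) and 3 (0.0999). Timp1, an inhibitor of matrix proteases, was at 0.15 (edgeR adjusted p = 0.159) and would be called without 90 min library 3 (log2 0.22, edgeR adjusted p = 0.0390). The serine protease inhibitor gene Serpina3n (−0.05) and Cp (−0.08) were not called, with edgeR adjusted p of 0.758 and 0.103.

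Of the 6 A1-type members 1 rose and 1 fell at 90 min, a called share of 33.3% beside 33.0% of all tested genes. Fkbp5, a co-chaperone that restrains the glucocorticoid receptor and is itself a glucocorticoid target, had 51.8, 51.2 and 51.6 CPM at 90 min, 34.5, 33.9 and 35.3 CPM at 3 days, and 38.4, 41.6 and 43.4 CPM in controls. All 90 min libraries were above, and all 3 day libraries below, the controls (log2 at 90 min 0.33, SE 0.06, edgeR adjusted p = 0.000137). Ggta1, a galactosyltransferase of cell surface sugars, had 20.2, 21.1 and 22.9 CPM at 90 min, 31.6, 32.8 and 31.1 CPM at 3 days, and 26.2, 27.1 and 30.2 CPM in controls, the reverse order (log2 at 90 min −0.38, SE 0.07, edgeR adjusted p = 0.000680). The class I histocompatibility genes H2-D1 (0.04, 95% interval −0.05 to 0.14) and H2-T23 (−0.04, −0.14 to 0.06) were not called (edgeR adjusted p 0.494 and 0.560). The adhesion gene Amigo2 (0.14) and the proteoglycan gene Srgn (−0.19), at 1 to 2 CPM in most libraries, had edgeR adjusted p of 0.738 and 0.652. H2-D1, H2-T23 and Serpina3n have similar copies in the mouse genome, so the share of reads assigned to each is uncertain.

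**Figure D4:**
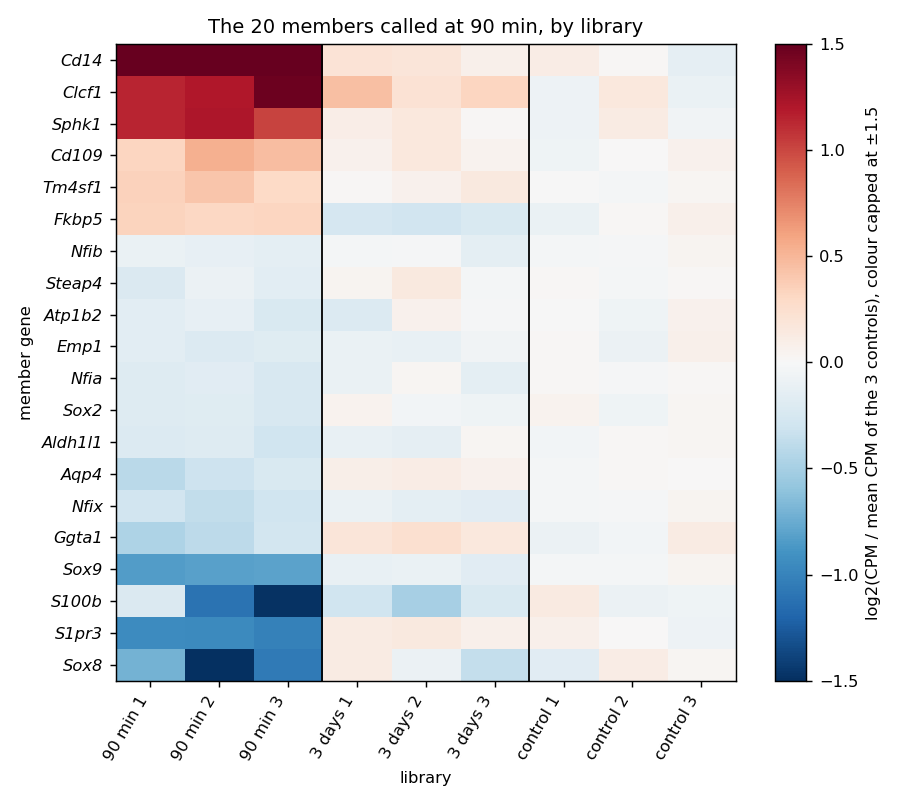
Each library's log2 ratio to the mean of the 3 controls for the 20 members called at 90 min (rows ordered by fold change; columns are the 3 libraries of 90 min, 3 days and control; colour capped at ±1.5). The 90 min columns run from Cd14 at the top to Sox8 at the bottom, and the 3 day columns lie between −0.50 for S100b and 0.45 for Clcf1.

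Other genes linked to reactivity were also counted. Their list was chosen with earlier results of these data known, so its direction is no independent evidence. Of 14 such genes outside the members 12 could be tested, and 6 rose and 1 fell at 90 min, where 17.5% of all tested genes rose and 15.5% fell. Among the 6 were Cd44 (log2 0.22, SE 0.04, edgeR adjusted p = 0.000202) and Osmr (0.26, SE 0.05, edgeR adjusted p = 0.000616). The gene that fell was Iigp1 (log2 −0.78, edgeR adjusted p = 0.0492), with 21 to 30 counts per 90 min library. The smallest p belonged to the pentraxin gene Ptx3 (log2 1.66, SE 0.05, edgeR adjusted p = 6.80e-15), the prostaglandin synthase gene Ptgs2 (2.85, SE 0.10, edgeR adjusted p = 1.46e-13) and Stat3, the transcription factor that relays interleukin-6 family signals (0.24, SE 0.04, edgeR adjusted p = 0.000166). Because Clcf1 belongs to that family, 22 of its ligands, receptors, kinases and inhibitors were followed. Of these 21 were tested, and 8 rose and 6 fell, beside the 17.5% and 15.5% of all tested genes. The ligand gene Il6 had the highest fold change of this list (log2 4.98, SE 0.55, edgeR adjusted p = 9.77e-07). It had 41 to 54 counts per 90 min library against 0 to 3 in controls. The ligand gene Lif rose by 0.71 (SE 0.11, edgeR adjusted p = 4.27e-05). The receptor gene Il6ra rose by 0.96 (58.0 to 63.2 against 30.7 to 31.9 CPM, edgeR adjusted p = 3.82e-10). Socs3, the feedback inhibitor of STAT3 signalling, fell by 1.07 on the log2 scale (12.9 to 15.1 against 28.4 to 32.8 CPM, edgeR adjusted p = 1.69e-08), and the kinase gene Jak1 rose by 0.38 (edgeR adjusted p = 3.73e-07). The CNTF receptor gene Cntfr, named after its values were seen, was at 0.19 (SE 0.24, edgeR adjusted p = 0.609).

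The comparison of 3 days with control asks what remained after the ligand had been removed. It shares its controls with the 90 min comparison, so the values of both are not independent. Of the 42 tested members 0 were called by edgeR, where 0.115% of all tested genes were (0.0382% higher and 0.0764% lower). An unadjusted p below 0.05 was found for 7 of the 42 and for 9.33% of all genes tested, and DESeq2 called 3 members (Nes, Nfix and Clcf1). The log2 fold changes of members lay between −0.53 for Srgn and 0.34 for Clcf1, with a median of 0.03 beside 0.00 over all genes tested.

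The 7 genes with an unadjusted p below 0.05 were Sox9, Nfix, Nes, Fkbp5, Clcf1, Ggta1 and Serpina3n, and for each the 3 day and control ranges did not overlap. Ranges were apart for 15 of the 42 tested members and for 2113 of all 13090 genes tested. The 7 were picked by p in this comparison, so their separate ranges are no further evidence. Sox9 was at −0.12 (SE 0.04, edgeR adjusted p = 0.278) and Nfix at −0.14 (SE 0.04, edgeR adjusted p = 0.218), with 713 to 753 CPM at 3 days against 788 to 831 CPM in controls. Nes was at −0.23 (SE 0.06, edgeR adjusted p = 0.164), and was called with no filter (edgeR adjusted p = 0.000445), in a fit of only these groups (edgeR adjusted p = 0.0424) and in DESeq2 (adjusted p = 0.0188). Fkbp5 was at −0.25 (SE 0.06, edgeR adjusted p = 0.108), the opposite sign of its value at 90 min, and was called with no filter (edgeR adjusted p = 0.0188). Clcf1 was at 0.34 (SE 0.09, edgeR adjusted p = 0.154), where its value at 90 min had been 1.28. Clcf1 was called at 3 days with no filter (edgeR adjusted p = 1.04e-05), without 90 min library 3 (edgeR adjusted p = 0.0206), in the fit of only these groups (edgeR adjusted p = 0.0343) and in DESeq2 (adjusted p = 0.0210). Ggta1 was at 0.20 (edgeR adjusted p = 0.391) and Serpina3n at 0.24 (13.0 to 14.0 against 10.1 to 12.7 CPM, edgeR adjusted p = 0.460).

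The 95% interval at 3 days left out 0 for Clcf1 (0.16 to 0.52), at 1.28 at 90 min, and for Sox9 (−0.20 to −0.04), at −0.82 at 90 min. For 4 other members with log2 changes near or above 1 in size at 90 min, the 95% interval at 3 days held 0 or reached it. Cd14 was at 0.15 (95% interval −0.02 to 0.32), Sphk1 at 0.10 (−0.10 to 0.30), S1pr3 at 0.11 (0.00 to 0.23) and Sox8 at −0.09 (−0.50 to 0.32). Differences within those intervals were not detectable with 3 libraries per group. Gfap was at 0.33 (−0.24 to 0.91), S100b at −0.33 (−0.93 to 0.26), Lcn2 at 0.20 (−0.24 to 0.65), Vim at −0.06 (−0.15 to 0.03), Aqp4 at 0.09 (−0.04 to 0.22) and Aldh1l1 at −0.07 (−0.22 to 0.09). Beside these values, 3 of 9 tested fibroblast and meningeal markers and 1 of 5 tested pericyte and smooth muscle markers were lower at 3 days. In these lists 0 were higher, and over all tested genes 0.0764% were lower and 0.0382% higher. Leaving out single libraries gave 0 to 83 called genes in this comparison, and the calls of these markers were not followed there. Sums were 3152 to 3353 CPM at 3 days against 3514 to 3795 CPM in controls for the first list of markers. For the second they were 669 to 688 against 736 to 745 CPM. The part of these markers in the 3 day result was not tested.

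The comparison of 3 days with 90 min spans ligand removal, fresh medium and further time in culture, which cannot be told apart, and it shares its libraries with both comparisons above. Of 22 identity genes 7 were higher and 1 was lower at 3 days, and of 20 tested reactive genes 5 were higher and 7 lower (edgeR adjusted p below 0.05), where 39.0% of all tested genes were called, 18.7% higher and 20.4% lower. All the transcription factor genes but Nfib (0.06, edgeR adjusted p = 0.276) were higher at 3 days. Sox8 was at 0.97 (SE 0.22, edgeR adjusted p = 0.00190), Sox9 at 0.69 (SE 0.04, edgeR adjusted p = 1.04e-10), Sox2 at 0.19 (edgeR adjusted p = 0.00251), Nfix at 0.18 (edgeR adjusted p = 0.00186) and Nfia at 0.14 (edgeR adjusted p = 0.0280). Aqp4 (0.40, edgeR adjusted p = 5.80e-05) and Ndrg2 (0.18, edgeR adjusted p = 0.0393) completed the higher identity genes. Nes was the 1 lower, at −0.36 (SE 0.06, edgeR adjusted p = 0.000104). Beside these, 1 of 9 tested fibroblast and meningeal markers was higher and 5 were lower at 3 days, with sums of 3152 to 3353 CPM at 3 days against 3267 to 3759 CPM at 90 min. Of 5 tested pericyte and smooth muscle markers 1 was higher and 3 were lower (669 to 688 against 522 to 584 CPM), and of 2 tested endothelial markers 1 was higher and 1 lower (51 to 58.4 against 43.9 to 45.9 CPM). Of 4 tested ependymal markers 1 was higher (89.9 to 96.2 against 40.4 to 48.8 CPM). Of 4 tested oligodendrocyte lineage markers 1 was lower (28.7 to 30.9 against 39.2 to 40.2 CPM), as was 1 of 2 tested microglia markers (6.3 to 8.06 against 7.81 to 10.7 CPM). Of 3 tested neuron markers 0 were called (131 to 145 against 139 to 157 CPM, nearly all from Map2). The part of these markers in the result was not tested.

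Among the called reactive genes S1pr3 (1.09, SE 0.06, edgeR adjusted p = 5.38e-11) and Ggta1 (0.57, SE 0.07, edgeR adjusted p = 6.23e-06) were highest at 3 days relative to 90 min, followed by Serpina3n (0.29), Steap4 (0.21) and Cp (0.14). Cd14 was lowest at −2.09 (SE 0.07, edgeR adjusted p = 5.65e-14), then Sphk1 (−1.03), Clcf1 (−0.94), Fkbp5 (−0.58), Cd109 (−0.35), Timp1 (−0.30, with overlapping ranges) and Tm4sf1 (−0.27). All 6 reactive members that rose at 90 min were lower at 3 days than at 90 min, and of the 4 that fell S1pr3, Ggta1 and Steap4 were higher. Emp1, the fourth, was at 0.10 (edgeR adjusted p = 0.0779), or 0.0495 without control library 2. The calls of Nfia, Ndrg2, Serpina3n and Cp were lost under at least 1 alternative. Nfia had an edgeR adjusted p of 0.0607 without 90 min library 1, 0.0578 without 90 min library 3 and 0.201 without 3 day library 2. Serpina3n had 0.0869 without 90 min library 3, 0.0686 without 3 day library 1 and 0.0788 without 3 day library 3. Cp had 0.0573 without 3 day library 2, and Ndrg2 had 0.0616 to 0.138 without any 1 of the 90 min and 3 day libraries (edgeR adjusted p). Other members were called only under an alternative. Lcn2, at 0.39 with all libraries, was at 0.75 without 90 min library 2 (edgeR adjusted p = 0.00681), and S100b, at 0.48, was at 0.94 without 90 min library 1 (edgeR adjusted p = 0.0351). Clu, at 0.13 with an edgeR adjusted p of 0.0561, was called higher without 90 min library 2 (0.19, edgeR adjusted p = 0.00626), with no filter (edgeR adjusted p = 0.0147), with the stricter filter (edgeR adjusted p = 0.0479) and in DESeq2 (adjusted p = 0.0487). Atp1b2 was called higher without 3 day library 1 (0.19, edgeR adjusted p = 0.0151) and Vim lower without 90 min library 3 (−0.11, edgeR adjusted p = 0.0340).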

How the data were processed

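RNA-seq was done on 9 libraries of cultured astrocytes, grouped by their titles. The authors deposited estimated counts per gene. fastp 0.23.4, Salmon 1.8.0 and the mm39 build are named in the submitters' processing notes. The gene annotation, the step from transcripts to genes and any use of strand were not given in the sources used here. Rounding changed no value, since each was whole. The tests ran in edgeR 4.0.16 under R 4.3.3. The count filter was filterByExpr (minimum count 10, minimum total 15), libraries were scaled by TMM, and 1 quasi-likelihood fit over all 9 libraries gave two-sided tests, adjusted over 13090 genes by Benjamini-Hochberg. Each SE was taken as the log2 fold change over the root of its F statistic, and 95% intervals use the fit's degrees of freedom. CPM are TMM-scaled. Per-library values are given for members called at 90 min with a log2 change of at least 0.5 and for the defining markers, and for a few others beside them. From each other list the 3 genes with the smallest p at 90 min are named, and a few others were added after their values were seen. The members and lists were chosen with earlier results of these data known. Between replicates, chi-square over its degrees of freedom was 2.37 to 7.03, so no libraries matched within sampling noise. The fit was tested on simulated data. Alternatives were RLE scaling, no filter, a minimum count of 30, DESeq2 1.42.0, fits restricted to each pair of groups, a replicate block and leaving out each library.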

Additional observations from a re-analysis of the deposited data

How the results depend on the processing

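At 90 min and between the times, the counts called in either direction, of identity members, reactive members and all genes, stayed within 1.5 times the values given under each of 15 alternatives. By direction, identity genes that fell at 90 min numbered 6 without control library 3, those that rose numbered 1 in 3 alternatives, and those lower at 3 days than at 90 min numbered 2 without 90 min library 3. The 3 day comparison with control did not: its 15 called genes became 205 with no filter, 76 in DESeq2, 76 in a fit of only these groups, 3 with the replicate block, and between 0 and 83 when single libraries were left out. Identity members called at 3 days, 0 in the reported fit, were 1 with no filter, 2 in DESeq2 and 1 in the fit of only these groups, and reactive members 2, 1 and 1, or 0 to 1 when single libraries were left out. The cause was not tested. No called member changed sign. Same-numbered libraries of different groups had deviations correlated at −0.15 to 0.05, and 0, 0 and 1 of 6 libraries correlated best with their own number at 90 min, at 3 days and between the times. The numbers were therefore not read as pairs, and the replicate block gave 3907 called genes at 90 min, with 8 identity and 10 reactive members. Gfap and S100b, at 10 to 34 counts, were removed by the stricter filter.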
